A study of Mus musculus with 28 samples.

Results

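The genes described here are 33 mouse genes of epithelial cell junctions, simple-epithelial keratins and the factors that accompany them, chosen by name. All 33 were found by symbol in both deposited expression tables, among 54109 identifiers in cells undergoing reprogramming and 54838 in induced pluripotent stem cells (iPSC). Mouse embryonic fibroblasts (MEF) from E13.5 to E15.5 embryos carried Rosa26-rtTA and Oct4-GFP alleles in heterozygous form, with a heterozygous DOX-inducible OKSM allele or a homozygous inducible OKS allele. Which libraries had which allele was not given. Fibroblasts were plated sparsely on irradiated feeder cells in ESC medium, and every reprogramming group received doxycycline (DOX) at 1 µg/ml. The 4 groups were DOX with 3C and UNC0638, DOX with 3C, DOX with UNC0638, and DOX alone, each with 3 libraries of total RNA. 3C stands for 3 compounds: L-ascorbic acid at 50 µg/ml, the GSK3 inhibitor CHIR99021 at 3 µM and, to block a TGF-beta receptor, 250 nM of TGF-b RI Kinase Inhibitor II. UNC0638, called UNC below, inhibits the H3K9 methyltransferases G9a and GLP and was used at 1 µM. The iPSC groups were 3 libraries from reprogramming with UNC for the initial 48 h and 3 from reprogramming with DMSO. The harvest time of the 12 reprogramming libraries was not given, and the treatment text of the iPSC samples speaks of a harvest at 48 h although their cell type is iPSC. Whether feeder cells were removed before RNA extraction, and whether replicates were separate cultures or embryos, was not stated, so the p-values measure only the spread between these libraries.

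Fibroblasts that become pluripotent pass through a mesenchymal-to-epithelial transition, in which they gain cell-cell junctions and apical-basal polarity. Adherens junctions hold neighbouring cells by E-cadherin (Cdh1), tight junctions seal the space between them with claudins, occludin and tricellulin on a scaffold of ZO proteins, and desmosomes tie keratin filaments to the membrane through plakoglobin, plakophilins and desmoplakin. Epithelial transcription factors such as Grhl2, Ovol1 and Elf3 and the splicing factors Esrp1 and Esrp2 sustain this state, while Snai and Zeb repressors oppose it by binding E-box sequences in promoters such as that of Cdh1. TGF-beta signalling is a known inducer of those repressors.

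Promoter sequence was available from RefSeq (build GRCm38.p6) for 22 of the 33 genes, in 27 windows of the 250 bases before an annotated start. The sequences of 6 genes are shown because they cover 2 neighbouring gene pairs (Cldn3 with Cldn4, and Krt8 with Krt18), together with Elf3 and Epcam, which were higher with 3C in both settings tested below. Each is written 5′ to 3′ on the strand of its gene and ends at the base before the start. Capitals mark the E-box CACCTG or its reverse complement CAGGTG, the core bound by Snai and Zeb factors. Cldn3 lies on the plus strand (chr5:134985964-134986213) and Cldn4 on the minus strand (chr5:134946935-134947184). Elf3 is on the minus strand (chr1:135258473-135258722), Epcam on the plus strand (chr17:87635729-87635978), Krt8 on the minus strand (chr15:102004343-102004592) and Krt18 on the plus strand (chr15:102027966-102028215).
Cldn3: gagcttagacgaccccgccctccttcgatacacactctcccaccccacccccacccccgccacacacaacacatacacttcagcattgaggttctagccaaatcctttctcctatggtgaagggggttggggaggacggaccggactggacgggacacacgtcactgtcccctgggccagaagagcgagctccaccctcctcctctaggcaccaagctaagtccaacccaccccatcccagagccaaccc
Cldn4: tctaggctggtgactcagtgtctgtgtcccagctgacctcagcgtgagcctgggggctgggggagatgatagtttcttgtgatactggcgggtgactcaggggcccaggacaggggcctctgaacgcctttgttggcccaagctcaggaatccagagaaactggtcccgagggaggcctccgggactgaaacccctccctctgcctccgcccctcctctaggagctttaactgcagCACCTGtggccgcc
Elf3: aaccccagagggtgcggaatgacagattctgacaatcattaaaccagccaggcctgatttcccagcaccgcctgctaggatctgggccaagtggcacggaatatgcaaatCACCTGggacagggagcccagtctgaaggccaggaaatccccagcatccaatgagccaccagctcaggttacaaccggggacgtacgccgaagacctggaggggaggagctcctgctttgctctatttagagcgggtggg
Epcam: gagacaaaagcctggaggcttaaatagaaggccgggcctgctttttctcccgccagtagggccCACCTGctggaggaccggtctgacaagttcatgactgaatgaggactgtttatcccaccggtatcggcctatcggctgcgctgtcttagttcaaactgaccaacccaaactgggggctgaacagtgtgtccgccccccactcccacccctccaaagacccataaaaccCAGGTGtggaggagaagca
Krt8: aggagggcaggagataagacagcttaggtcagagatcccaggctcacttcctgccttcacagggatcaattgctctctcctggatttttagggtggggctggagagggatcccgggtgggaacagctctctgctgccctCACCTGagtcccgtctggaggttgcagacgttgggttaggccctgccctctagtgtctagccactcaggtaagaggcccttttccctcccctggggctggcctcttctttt
Krt18: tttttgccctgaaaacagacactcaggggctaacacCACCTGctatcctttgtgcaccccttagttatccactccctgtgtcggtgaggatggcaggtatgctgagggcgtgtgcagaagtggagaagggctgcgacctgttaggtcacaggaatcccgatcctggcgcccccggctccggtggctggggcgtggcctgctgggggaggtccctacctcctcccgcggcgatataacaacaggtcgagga
Cldn4 held the E-box 14 bases before its start and Elf3 140 bases before it. Epcam held 2, at 187 and 19 bases before the start. Krt8 had one at 111 bases and Krt18 one at 214 bases before the start, and the Cldn3 window had none. Over all windows of these genes, CACCTG on either strand was found in 17 of 27 (63.0%), against 17.2% of 32851 RefSeq windows of the same length. These windows had a median GC content of 60.8%, against 52.4% over all windows. GGGCGG on either strand, a GC box, was in 70.4% of the windows, against 32.7% of all, and can share an end letter with the E-box. AACCNGTT, the grainyhead motif, was in 1 window, that of Rab25 (3.70%, against 0.928% of all), and ATCAAAG, a TCF/LEF core, was in 0 of 27, against 3.21% of all windows. Some genes had more than 1 window, and windows of the same gene can overlap, as those of Crb3 do. The same match can thus count more than once in these shares. These matches describe the letters only, and binding was not measured here. Some of the genes are neighbours: Krt8 and Krt18 are 23.9 kb apart, Cldn3 and Cldn4 39.3 kb, and Ocln and Marveld2 43.2 kb, each pair with 0 protein-coding genes between.

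The reprogramming table gave normalised read counts, that is, reads divided by 1 factor per library, and the iPSC table raw counts. Reprogramming libraries held 10616764 to 20211641 reads in genes and iPSC libraries 21592023 to 25408585. In each reprogramming library the 16 mesenchymal adhesion and filament genes summed to between 141848 and 334086 normalised counts, so the labelled fibroblast origin had its defining genes. The iPSC libraries had 426 to 487 CPM (a gene's reads scaled to a common total of reads in genes per library) of Nanog and 841 to 914 CPM of Esrrb, both defining genes of pluripotent cells, and also 670 to 1177 CPM of the collagen gene Col1a1. Library 1 of DOX with 3C stood apart, with 1253 normalised counts of the globin gene Hbb-bs, against 53.3 to 151 in the other libraries, and 749 of Afp, against 23.0 to 90.6. The 10 trophoblast markers, a list that shares Krt7 with these genes, summed to 45.2 to 84.2 normalised counts in DOX with 3C and 22.8 to 36.8 in DOX, and their part in the values below was not tested. In whole-culture RNA, fewer cells of a type and less RNA per cell cannot be told apart.

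Most of the 33 genes were well expressed in iPSC and had few reads in reprogramming cells. In CPM, 26 of the 33 were higher in every iPSC library than in every reprogramming library, a pattern found in 39.2% of 18332 genes that reached 1 CPM somewhere, and 0 of the 33 were lower in every iPSC library, against 27.8% of all genes. The tables were counted separately, so these levels are set side by side with no test. Cdh1, the adherens-junction cadherin (ENSMUSG00000000303, mm10 chromosome 8, 106603350 to 106670247), had 569 to 646 CPM in iPSC and 3.27 to 18.2 CPM in reprogramming cells. Epcam, an adhesion molecule of simple epithelia and pluripotent cells, had 213 to 257 CPM in iPSC and 0.0553 to 1.10 CPM in reprogramming cells. Grhl2, the grainyhead factor that activates junction genes, had 24 to 30.4 CPM in iPSC and 0 to 0.188 CPM in reprogramming cells. In iPSC, 23 of the genes reached 10 CPM in all 6 libraries, while 13 stayed under 1 CPM in all 12 reprogramming libraries.

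**Figure D1:**
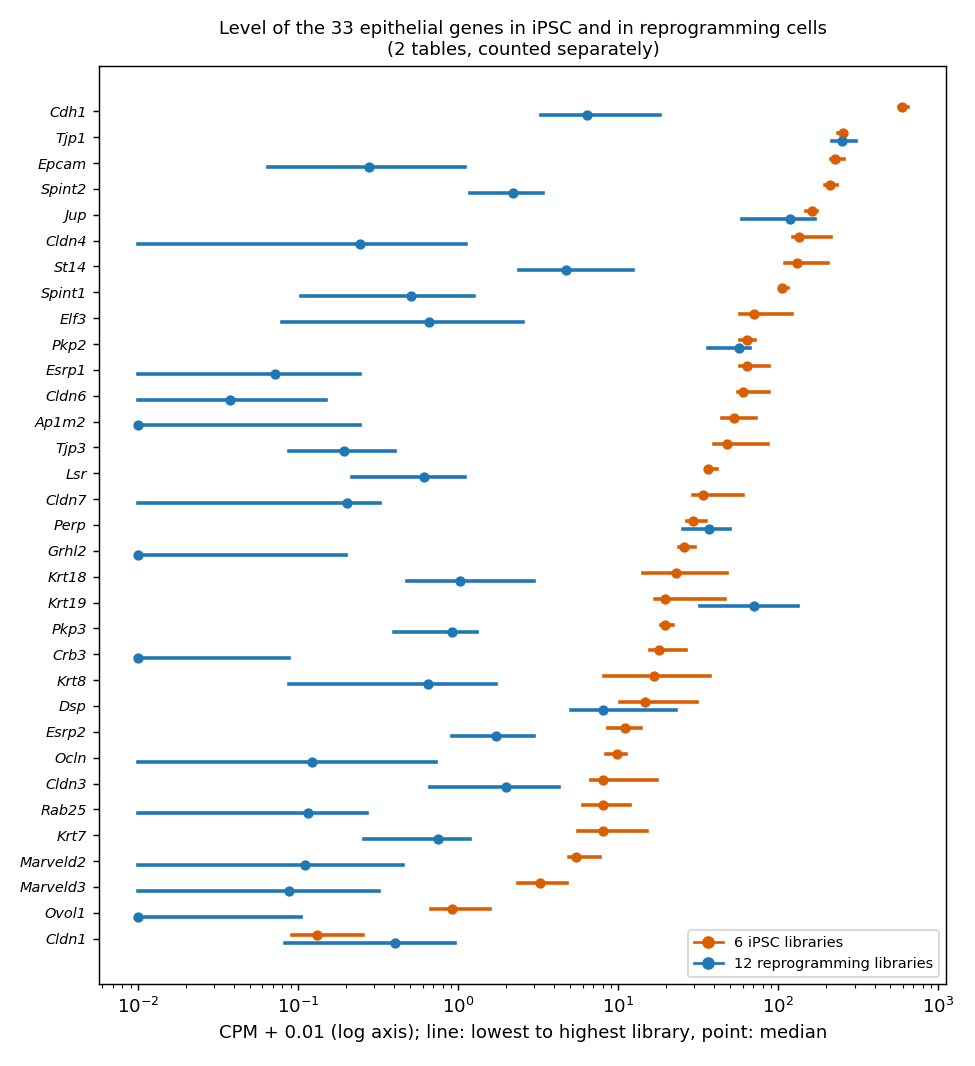
Level of the 33 epithelial genes in CPM + 0.01 on a log axis, in the 6 iPSC libraries (orange) and the 12 reprogramming libraries (blue); lines run between the lowest and highest library and points are medians. The 2 lines are apart for 26 genes and overlap for Tjp1, Jup, Pkp2, Perp, Krt19, Dsp and Cldn1; levels of different genes are not comparable, since CPM is not divided by length.

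The 7 genes whose ranges overlapped include junction parts that fibroblasts also make. Tjp1, the scaffold ZO-1, had 235 to 267 CPM in iPSC and 216 to 308 CPM in reprogramming cells. Jup, plakoglobin, which serves both desmosomes and adherens junctions, had 149 to 176 CPM in iPSC and 59.2 to 170 CPM in reprogramming cells. Krt19, a type I keratin of simple epithelia and mesothelium, had 16.9 to 46.4 CPM in iPSC, where only DMSO library 3 exceeded 22.2 CPM, and 32.3 to 133 CPM in reprogramming cells. Cldn1, a claudin of epidermal tight junctions, stayed at 0.0811 to 0.244 CPM in iPSC and 0.0725 to 0.949 CPM in reprogramming cells, so it was barely detected in either. Pkp2 (a plakophilin), Perp (a desmosome-associated membrane protein) and Dsp (desmoplakin) were the other overlapping genes.

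Whether 3C changed these genes was tested among the reprogramming libraries, where 21 of the 33 passed the filter of 10 normalised counts in at least 3 libraries. Epcam, Cldn4, Elf3 and Spint1 passed only through libraries with 3C, and Krt8 and Cldn1 only through libraries without it, so these genes had to differ, and no count below stands for all 33 genes. Adding 3C to DOX moved the tested genes in both directions. Of the 21, 8 were higher and 4 lower at an adjusted p below 0.05 (limma), in a comparison that called 49.4% of all 16138 genes (24.7% higher and 24.7% lower). The called share was 57.1% of the 21, near that background, and their median log2 fold change was 0.47, against 0.02 over all genes.

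Among adherens and tight junction genes, Cdh1 had 240, 120 and 234 normalised counts in DOX with 3C, against 72.3, 69.7 and 73.2 in DOX. Every 3C library was above every DOX library, and the log2 fold change was 1.38 ± 0.21 (standard error, limma, adjusted p = 3.12e-05). Cldn3, a sealing claudin, averaged 53.8 ± 10.1 normalised counts in DOX with 3C and 20.0 ± 11 in DOX (SD, n = 3 each), also without overlap (1.50 ± 0.31, adjusted p = 0.000632). Its neighbour Cldn4, another claudin of simple epithelia, had 7.12, 3.70 and 7.72 normalised counts in DOX with 3C, which were 21 reads in all, against 1.23, 0 and 0 in DOX, which was 1 read (2.41 ± 0.60, adjusted p = 0.00259). Of these neighbours, whose promoter windows are shown above, Cldn4 held the E-box and Cldn3 did not. Epcam had 16.6, 14.1 and 13.9 normalised counts in DOX with 3C, against 4.90, 1.20 and 1.46 in DOX (2.32 ± 0.52, adjusted p = 0.00118). Tjp1 went the other way, with 3535 ± 112 normalised counts in DOX with 3C and 4588 ± 211 in DOX (-0.38 ± 0.07, adjusted p = 0.00014).

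**Figure D2:**
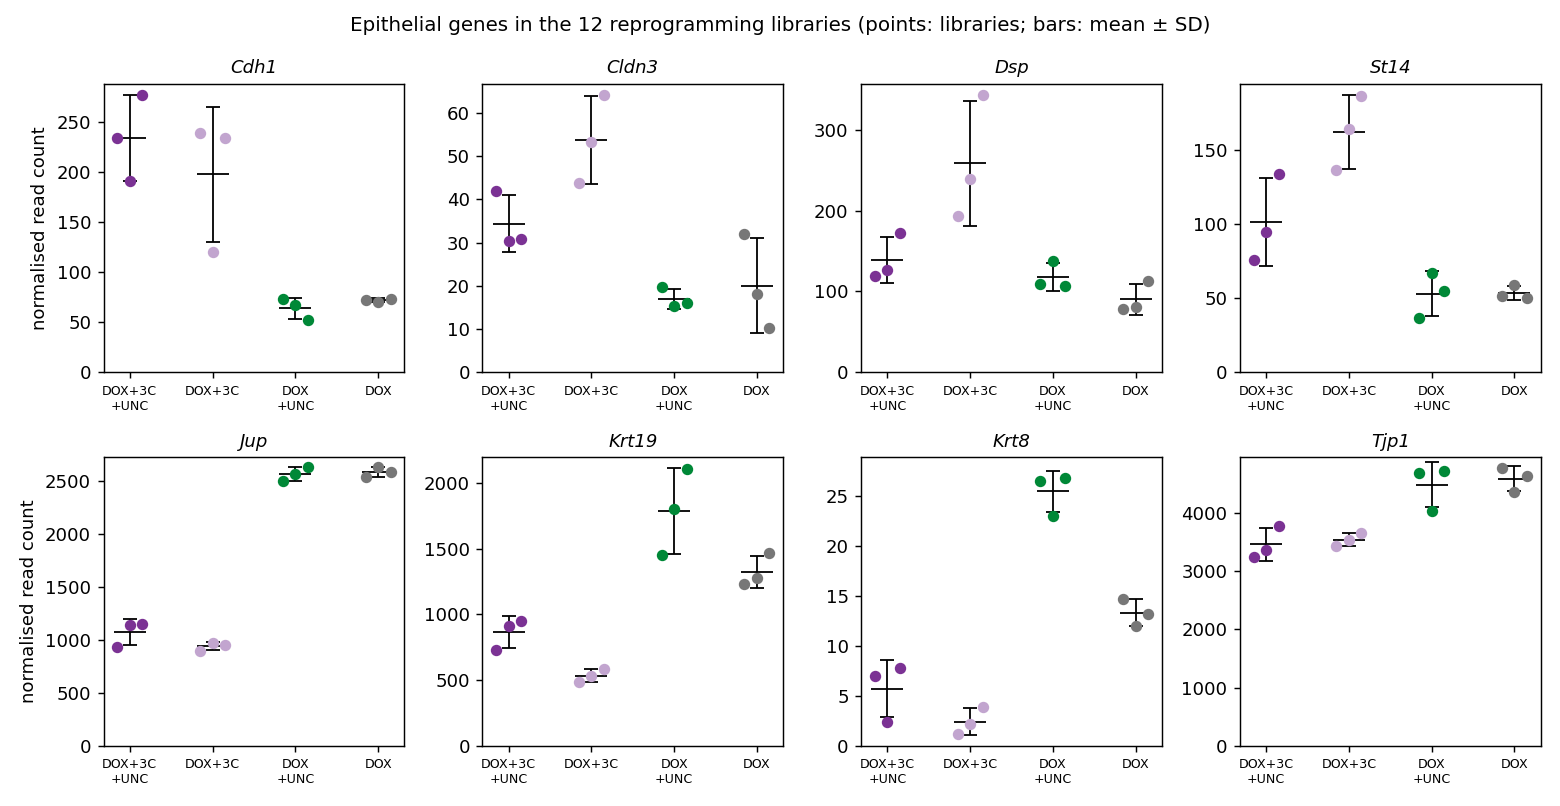
Normalised read counts of 8 epithelial genes in the 12 reprogramming libraries, by group; points are libraries, and bars give the mean ± SD of 3. Cdh1, Cldn3, Dsp and St14 were higher in DOX with 3C than in DOX, while Jup, Krt19, Krt8 and Tjp1 were lower.

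Desmosome genes split. Dsp, which anchors keratin filaments (ENSMUSG00000054889, mm10 chromosome 13, 38151294 to 38198577), had 193, 239 and 344 normalised counts in DOX with 3C, against 78.5, 80.5 and 113 in DOX (1.48 ± 0.20, adjusted p = 5.94e-06). Jup had 896, 968 and 953 normalised counts in DOX with 3C, against 2538, 2635 and 2587 in DOX, and this was the smallest p among the 21 genes (-1.46 ± 0.07, adjusted p = 8.62e-12). The plakophilins Pkp2 (-0.16 ± 0.13) and Pkp3 (0.48 ± 0.30), which link desmosomal cadherins to Dsp, and Perp (0.26 ± 0.14) were not called. With the replicate number as a block, limma called Pkp2 lower (adjusted p = 0.0284) and Perp higher (0.00826), in a fit that called 53.4% of all genes.

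Of the 4 keratins, 2 were lower with 3C and 0 higher, too few to set against the 24.7% of all genes called lower. Krt8, 1 of these 2, passed the filter only through libraries without 3C, so its direction was favoured by that filter. Krt19 (ENSMUSG00000020911, mm10 chromosome 11, 100140810 to 100145926) had 489, 528 and 584 normalised counts in DOX with 3C, against 1232, 1273 and 1464 in DOX (-1.31 ± 0.12, adjusted p = 4.93e-08). Krt8, the type II keratin of simple epithelia, had 1.19, 2.22 and 3.86 normalised counts in DOX with 3C, or 9 reads in all, against 14.7, 12 and 13.2 in DOX, or 31 reads (-2.13 ± 0.42, adjusted p = 0.000357). Krt18, the type I partner with which Krt8 forms filaments, averaged 17.3 ± 4.47 normalised counts in DOX with 3C and 12.6 ± 4.55 in DOX (SD, n = 3 each) and was not called (0.47 ± 0.33, adjusted p = 0.255). The promoter windows of both partners held the E-box. Krt7, a type II keratin of ducts, was not called (-0.45 ± 0.48). The list of 9 mesothelial markers shares Krt19, Krt8 and Krt18 with these genes. Of its other 6 genes 5 were tested, and 2 were lower with 3C and 0 higher, a share of 40% against the 49.4% called over all genes: Msln, the mesothelial surface protein mesothelin, at -2.07 ± 0.26 and the uroplakin gene Upk1b at -1.42 ± 0.34. Those 6 genes summed to 39.1 to 68.7 normalised counts in DOX with 3C and 121 to 215 in DOX, with 0 of them at 0 in every library, and their part in the keratin values was not tested.

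St14 and Spint1, of the epithelial surface protease system, and Elf3 were higher with 3C, Elf3 being the only 1 of the 3 transcription factor genes in the set that was tested. St14, the membrane protease matriptase, had 136, 164 and 186 normalised counts in DOX with 3C, against 51.5, 58.8 and 49.8 in DOX (1.58 ± 0.22, adjusted p = 9.09e-06). Spint1, which encodes its inhibitor HAI-1, averaged 13.9 ± 4.42 normalised counts in DOX with 3C and 4.14 ± 2.98 in DOX (1.67 ± 0.49, adjusted p = 0.00839), and the second inhibitor gene Spint2 was not called (-0.49 ± 0.29). Elf3, an Ets-family factor of epithelia, had 20.2, 11.1 and 17 normalised counts in DOX with 3C, against 1.23, 1.20 and 1.46 in DOX (2.86 ± 0.52, adjusted p = 0.00017). Esrp2, an epithelial splicing regulator, had every 3C library above every DOX library but missed the threshold (0.53 ± 0.24, adjusted p = 0.0728, and 0.0429 with edgeR). Lsr, which recruits tricellulin to corners where cells meet, was not called (-0.28 ± 0.41). The 12 calls of this comparison were kept under every alternative in which the gene was tested, including without library 1 of DOX with 3C.

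The 12 genes under the filter held few reads in this comparison, and these are given as counts. Ocln, occludin, had 29 reads over the 3 libraries of DOX with 3C and 0 in DOX, at least 6.68-fold higher against a floor of 3 reads per group. Marveld2 (tricellulin) had 19 reads in DOX with 3C and 2 in DOX, and its relative Marveld3 had 14 reads in DOX with 3C and 1 in DOX. With no filter, limma called these 3 genes higher (adjusted p = 0.000498 for Ocln, 0.0125 for Marveld2 and 0.00446 for Marveld3). Grhl2, in contrast, had 0 reads in DOX with 3C and 5 in DOX, and was called lower with no filter (adjusted p = 0.0039). The remaining 8 genes had at most 13 reads in either group: the claudin genes Cldn6 and Cldn7, the ZO-3 scaffold gene Tjp3, the polarity gene Crb3, the splicing regulator Esrp1, the repressor Ovol1, the small GTPase gene Rab25 and the sorting adaptor gene Ap1m2.

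The same addition of 3C in the presence of UNC called 9 of the 21 genes higher and 7 lower, in a comparison that called 47.4% of all genes (23.9% higher and 23.5% lower). The called share was 76.2% of the 21, with a median log2 fold change of 0.22, against 0.01 over all genes. Both rest partly on genes whose direction the filter favoured, so the share cannot be weighed against that of all genes. This comparison shares no library with the one without UNC, but both came from 1 fit, with 1 spread per gene and 1 filter over all 12 libraries. Elf3 and Cldn4 passed that filter only through libraries with 3C, and Krt8 and Cldn1 only through libraries without it. The direction of these genes here is therefore no separate evidence. Epcam passed only through DOX with 3C, a group outside this comparison, and stayed under 10 normalised counts in both groups here. Cdh1 had 234, 192 and 277 normalised counts in DOX with 3C and UNC, against 72.6, 66.9 and 51.8 in DOX with UNC (1.86 ± 0.21, adjusted p = 1.09e-06). Elf3 (2.87 ± 0.52), Cldn4 (2.80 ± 0.60), Epcam (1.60 ± 0.52), Cldn3 (0.97 ± 0.31) and St14 (0.93 ± 0.22) were again higher, and Jup (-1.26 ± 0.07), Krt19 (-1.04 ± 0.12), Krt8 (-2.09 ± 0.42) and Tjp1 (-0.37 ± 0.07) again lower. Esrp2 averaged 34.7 ± 3.49 normalised counts in DOX with 3C and UNC and 15.8 ± 2.61 in DOX with UNC, without overlap (1.10 ± 0.24, adjusted p = 0.000844).

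Other genes passed the threshold in this setting only, which does not show that the 3C effect differed. Krt18 had 26.8, 24.2 and 45.3 normalised counts in DOX with 3C and UNC, against 15.4, 13.2 and 18.7 in DOX with UNC (0.94 ± 0.33, adjusted p = 0.0259), so the partners Krt18 and Krt8 were called in opposite directions. Lsr was higher (1.04 ± 0.41, adjusted p = 0.0453), and Pkp2 (-0.53 ± 0.13, adjusted p = 0.00186), Spint2 (-0.90 ± 0.29, adjusted p = 0.0167) and Cldn1 (-1.77 ± 0.66, adjusted p = 0.0339) were lower. For Cldn1 the filter favoured that direction, so its call is no evidence of a 3C effect. Dsp had 119, 126 and 172 normalised counts in DOX with 3C and UNC, against 109, 138 and 107 in DOX with UNC, and was not called (0.22 ± 0.20, adjusted p = 0.377). Spint1 was not called either (0.56 ± 0.49).

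Several of these calls were lost under other settings. With no filter on low values Krt18 (adjusted p = 0.071), Cldn1 (0.0635) and Lsr (0.117) were no longer called, and DESeq2 did not call Cldn1 (0.0601) or Lsr (0.135). Among fits that left out 1 library, Krt18 was lost without DOX UNC library 1 or 2 or DOX 3C UNC library 3 (adjusted p = 0.0582 to 0.144), Cldn1 without DOX UNC library 1 or 2 or DOX 3C UNC library 1 or 3 (0.0839 to 0.118), and Spint2 without DOX UNC library 1 or 3 or DOX 3C UNC library 2 (0.0641 to 0.0803). Cldn3 was lost without DOX UNC library 2 or DOX 3C UNC library 1 (0.0503 and 0.0688) and Epcam without DOX UNC library 3 or DOX 3C UNC library 2 (0.0505 and 0.0873). Lsr was lost without DOX library 3, DOX UNC library 1 or 2, DOX 3C library 2 or 3, or any 1 of the DOX 3C UNC libraries (0.0507 to 0.207).

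**Figure D3:**
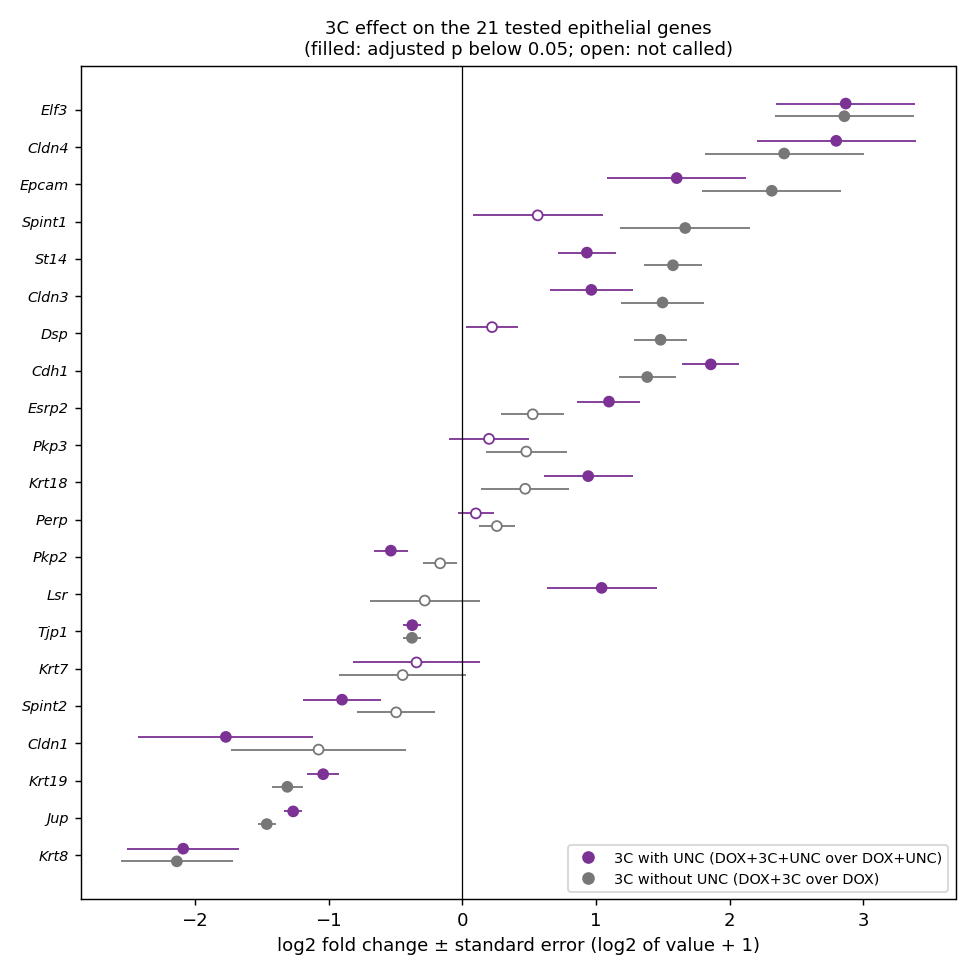
Log2 fold change ± standard error of 3C for the 21 tested epithelial genes, with UNC (purple) and without UNC (grey); filled points had an adjusted p below 0.05 in limma. Elf3, Cldn4, Epcam, St14, Cldn3 and Cdh1 lie right of 0 and filled in both, Krt8, Jup, Krt19 and Tjp1 left of 0 and filled in both, while Dsp is filled only without UNC.

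Adding UNC to DOX alone called 0 of the 21 genes, in a comparison that called 0.607% of all genes. At an unadjusted p below 0.05 there were 4 of 21 genes (Krt19, Pkp3, Esrp2 and Krt8), against 1505 of all 16138 genes. Of the 21, edgeR called 0 and DESeq2 called 1, Krt19 (adjusted p = 0.0223). Over all genes DESeq2 called 127 higher and 41 lower. Krt19 had 1454, 1799 and 2106 normalised counts in DOX with UNC, against 1232, 1273 and 1464 in DOX, so the groups overlapped by a narrow margin (0.42 ± 0.12, adjusted p = 0.136, and 0.0237 without DOX UNC library 1). With the replicate number as a block, limma called Krt19 higher (0.42 ± 0.06, adjusted p = 0.000471). That fit called 315 of all 16138 genes higher and 94 lower. Krt8 had 26.5, 23.0 and 26.8 normalised counts in DOX with UNC, against 14.7, 12 and 13.2 in DOX, without overlap (0.89 ± 0.42, adjusted p = 0.53). Pkp3 averaged 16.5 ± 3.05 normalised counts in DOX with UNC and 8.2 ± 1.97 in DOX (0.94 ± 0.30, adjusted p = 0.234). Msln, the mesothelial gene, was called higher here (1.34 ± 0.26, adjusted p = 0.0204), 1 of 5 tested mesothelial genes outside the keratins, and the 6 such genes summed to 266 to 417 normalised counts in DOX with UNC and 121 to 215 in DOX. Their part in the keratin values was not tested. Cdh1 (-0.18 ± 0.21), Tjp1 (-0.04 ± 0.07) and Jup (-0.01 ± 0.07) were not called.

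Adding UNC to DOX with 3C called 1 of the 21 genes higher and 3 lower, in a comparison that called 11.6% of all genes (7.71% higher and 3.94% lower), with a median log2 fold change of 0.09, against 0.00 over all genes. Krt19 had 728, 912 and 952 normalised counts in DOX with 3C and UNC, against 489, 528 and 584 in DOX with 3C (0.69 ± 0.12, adjusted p = 0.000963), every library with UNC being above every one without. Dsp had 119, 126 and 172 normalised counts in DOX with 3C and UNC, against 193, 239 and 344 in DOX with 3C, again without overlap (-0.87 ± 0.20, adjusted p = 0.00765). These 2 calls were kept under every alternative run for them. Of 5 tested mesothelial genes outside the keratins, 1 was higher and 0 lower (20%, against 11.6% of all genes). It was Msln, at 2.15 ± 0.26 (adjusted p = 3.46e-05). The 6 such genes summed to 130 to 160 normalised counts in DOX with 3C and UNC, against 39.1 to 68.7 in DOX with 3C. Their part in the Krt19 values was not tested.

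St14 had 75.7, 94.6 and 134 normalised counts in DOX with 3C and UNC, against 136, 164 and 186 in DOX with 3C (-0.70 ± 0.22, adjusted p = 0.0448). The libraries of the 2 groups did not overlap but lay close, and the call was lost without DOX library 1 or 3, DOX UNC library 3, DOX 3C library 2 or 3, or DOX 3C UNC library 1 or 2 (adjusted p = 0.0515 to 0.186). Pkp2 averaged 631 ± 86.9 normalised counts in DOX with 3C and UNC and 843 ± 147 in DOX with 3C, with overlapping libraries (-0.41 ± 0.13, adjusted p = 0.0423), and lost its call without DOX library 3, DOX 3C library 2 or 3, or DOX 3C UNC library 1 or 3 (0.0526 to 0.205). With no filter on low values neither St14 (adjusted p = 0.0695) nor Pkp2 (0.065) was called. With the replicate number as a block Pkp2 had an adjusted p of 5.63e-05, and Jup was called higher (0.19 ± 0.06, 0.0229, against 0.0884 with no block), in a fit that called 17.8% of all genes. Genes that missed the threshold lay on both sides. Epcam had 5.82, 9.70 and 3.31 normalised counts in DOX with 3C and UNC, against 16.6, 14.1 and 13.9 in DOX with 3C (-1.22 ± 0.52, adjusted p = 0.145), while its fellow surface gene Cldn4 had 16.3, 15.8 and 13.3, against 7.12, 3.70 and 7.72 (1.21 ± 0.60, adjusted p = 0.21). Epcam passed the filter only through the libraries of DOX with 3C and Cldn4 only through those of DOX with 3C and UNC, so the groups had to lie apart. Ocln held 5 reads in DOX with 3C and UNC, against 29 in DOX with 3C, and was not called with no filter (adjusted p = 0.152).

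**Figure D4:**
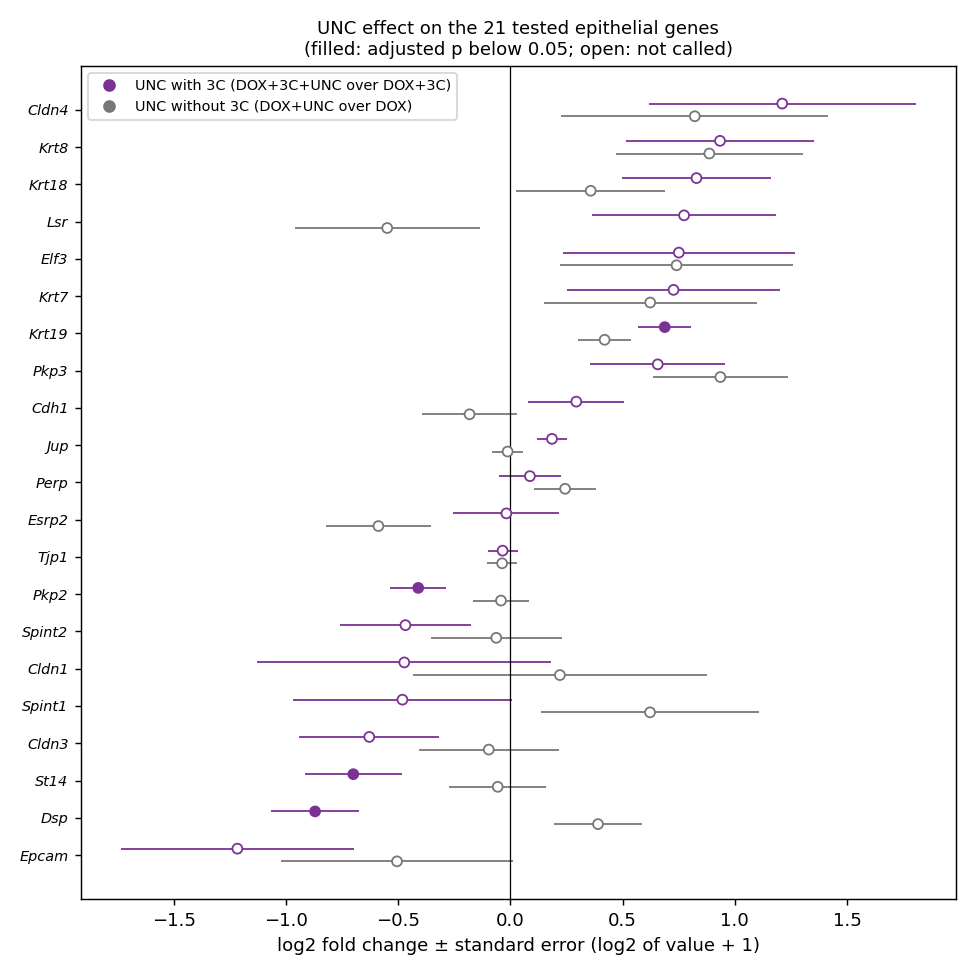
Log2 fold change ± standard error of UNC for the 21 tested epithelial genes, with 3C (purple) and without 3C (grey); filled points had an adjusted p below 0.05 in limma. With 3C, Krt19 is filled right of 0 and Pkp2, St14 and Dsp are filled left of 0; without 3C no point is filled.

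Whether the UNC effect differed between the settings was tested as an interaction, which called 0 of the 21 genes and 0.062% of all genes. At an unadjusted p below 0.05 there were 2 of the 21 (Dsp and Lsr), against 1797 of all 16138 genes. Of the 21, edgeR called 0 and DESeq2 called 1. Over all genes DESeq2 called 125 higher and 35 lower. The nearest was Dsp, at -1.26 ± 0.28 (adjusted p = 0.0782, 0.00461 with DESeq2, and 0.0341 without DOX 3C library 1). Krt19, higher with UNC in both settings by value, had an interaction of 0.27 ± 0.17 (adjusted p = 0.586). For Lsr it was 1.32 ± 0.58 (adjusted p = 0.403).

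Other junction, polarity and keratin genes were counted in a second list of 50, of which 26 were tested. With 3C over DOX, 7 were higher and 7 lower (median 0.16), a share of 53.8% near the 49.4% of all genes. Among them was Ppl, the cornified-envelope and desmosome linker periplakin, with 151 ± 20.8 normalised counts in DOX with 3C and 8.02 ± 2.00 in DOX (4.09 ± 0.24, adjusted p = 1.74e-10). The catenin genes Ctnna1 (-0.68 ± 0.04) and Ctnnd1 (-0.68 ± 0.07), whose proteins bind cadherin tails, and the paracingulin gene Cgnl1 (-1.95 ± 0.18) were lower. With UNC present, 8 were higher and 9 lower with 3C (median 0.05; 65.4%, against 47.4% of all genes), including Ppl (5.08 ± 0.24), Ctnna1 (-0.70 ± 0.04), Ctnnd1 (-0.60 ± 0.07) and the polarity gene Mpp5 (-0.53 ± 0.06). UNC in DOX raised 2 and lowered 0 (7.69%, against 0.607% of all genes): the polarity gene Patj (0.36 ± 0.08) and F11r, the junctional adhesion molecule JAM-A (0.60 ± 0.13). UNC in DOX with 3C raised 4 and lowered 4 (30.8%, against 11.6%), with F11r at 0.67 ± 0.13, Cgnl1 at 0.78 ± 0.18 and the hemidesmosome integrin gene Itgb4 at -0.53 ± 0.11.

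Transcription factors of the epithelial and mesenchymal states, both kinds in 1 list, were called in both directions with 3C. Of 16 tested, 7 were higher and 2 lower with 3C over DOX (median 0.46), a share of 56.2% near the 49.4% of all genes. Zeb1, a repressor of Cdh1, was lower (-0.50 ± 0.06, adjusted p = 1.16e-06), while its relative Zeb2 (0.57 ± 0.07), the mesenchymal factor Twist1 (1.58 ± 0.08), the limb mesenchyme factor Prrx2 (1.07 ± 0.12) and the epidermal factor Grhl3 (2.73 ± 0.31) were higher. The other lower factor was Ehf, of epithelia (-1.20, limma, adjusted p = 1.79e-06). Snai1 (0.35 ± 0.14) and Snai2 (0.14 ± 0.14), both repressors of Cdh1, were not called, although Snai1 was called with the replicate number as a block (adjusted p = 0.0143). With UNC present, 12 were higher and 2 lower with 3C (median 0.83; 87.5%, against 47.4% of all genes), with Snai1 at 1.20 ± 0.14, Snai2 at 0.82 ± 0.14, Zeb2 at 0.69 ± 0.07, Zeb1 at -0.24 ± 0.06, Twist1 at 1.82 ± 0.08, Prrx2 at 1.51 ± 0.12 and Grhl3 at 3.41 ± 0.31. Ehf was again the other lower factor (-0.55, limma, adjusted p = 0.00391). UNC in DOX with 3C raised 8 and lowered 0 (median 0.38; 50%, against 11.6%), among them Prrx1 (0.32 ± 0.05), the epithelial Ets factor Ehf (0.97 ± 0.14), Twist1 (0.46 ± 0.08), Prrx2 (0.65 ± 0.12), Snai2 (0.77 ± 0.14), Snai1 (0.62 ± 0.14), Zeb1 (0.24 ± 0.06) and Zeb2 (0.22 ± 0.07). For UNC in DOX alone limma, edgeR and DESeq2 each called 0 of the 16 and 2 had an unadjusted p below 0.05 (median -0.03), with Snai1 at -0.23, Snai2 at 0.09, Zeb1 at -0.02, Zeb2 at 0.10 and Twist1 at 0.21. The epithelial factor Ovol2 had at most 4.38 normalised counts in these libraries and was not tested.

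Mesenchymal adhesion and filament genes were mostly lower with 3C. With 3C over DOX, 0 of 16 were higher and 12 lower (median -0.81; 75%, against 49.4% of all genes), with the smooth muscle actin gene Acta2 at -2.75 ± 0.10, the smooth muscle protein gene Tagln at -3.71 ± 0.14, the collagen gene Col1a2 at -1.79 ± 0.07, the integrin gene Itgb3 at -2.00 ± 0.09 and Cdh2, the N-cadherin, at -0.70 ± 0.10. With UNC present, 3 were higher and 11 lower with 3C (median -0.66; 87.5%, against 47.4%), Cdh2 being at -0.85 ± 0.10, Itgb3 at -2.41 ± 0.09, Tagln at -3.34 ± 0.14, Acta2 at -2.10 ± 0.10 and Col1a2 at -1.37 ± 0.07. UNC in DOX with 3C raised 11 and lowered 0 (median 0.65; 68.8%, against 11.6%), with Col1a1 at 0.93 ± 0.08, Acta2 at 1.02 ± 0.10, the surface antigen gene Thy1 at 0.86 ± 0.08 and Col1a2 at 0.72 ± 0.07, and Cdh2 not called (-0.03 ± 0.10). For UNC in DOX alone limma called 0 of 16, although 12 had an unadjusted p below 0.05 and edgeR and DESeq2 called 4 each (median 0.30, Cdh2 at 0.12 ± 0.10).

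In iPSC, UNC during the first 48 h was compared with DMSO for 32 of the 33 genes, Cldn1 being too low to test. None was called by edgeR, in a comparison that called 1.31% of all 17987 genes (1.27% higher and 0.0389% lower). At an unadjusted p below 0.05 there were 15 of the 32, against 2207 of all 17987 genes. DESeq2 called 1 of the 32, Ap1m2 (adjusted p = 0.0235), and 2.20% of all genes. In other edgeR fits 13 were called lower with no count filter, where 2.57% of all genes were called, and 7 with the replicate number as a block, where 2.26% were. Of the 13, all but Ap1m2 and Cldn6 were at least 1.5-fold high in DMSO library 3, as described below. So were all but Ap1m2 of the 7. The standard error of Krt8 was 0.31 in the main fit, 0.11 with no count filter and 0.10 with the block. Of the 32 log2 fold changes 31 were below 0, against 51.9% over all genes, and Grhl2 was at 0.09. The median was -0.25, against -0.01 over all genes. In 12 genes every UNC library was below every DMSO library, a pattern found in 10.3% of all genes, and in 0 genes above, against 8.95% of all genes. Krt8 had 8.2, 10.1 and 16.5 CPM in UNC iPSC, against 17.1, 17.1 and 37.5 CPM in DMSO iPSC (-1.04 ± 0.31, adjusted p = 0.198). St14 had 110, 110 and 126 CPM in UNC iPSC, against 137, 135 and 206 CPM in DMSO iPSC (-0.45 ± 0.14, adjusted p = 0.203). Elf3 had 57.5, 66.6 and 70.2 CPM in UNC iPSC, against 70.7, 81.7 and 121 CPM in DMSO iPSC (-0.48 ± 0.16, adjusted p = 0.242).

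DMSO library 3 was high for many of these genes. It was the highest of the 3 DMSO libraries in 30 of the 32 genes, all but Tjp1 and Grhl2, whereas it was highest in 42.3% of all genes. It was at least 1.5-fold above the mean of the other two DMSO libraries in 13 of the 32, against 4.88% of all genes, and the median ratio was 1.39, against 1.01. The 13 spanned several roles. All 4 keratins were among them, with ratios of 2.22 for Krt19, 2.19 for Krt8, 2.1 for Krt18 and 1.86 for Krt7. So were Dsp (2.13), the claudins Cldn3 (2.06), Cldn7 (1.78) and Cldn4 (1.53), and also Ovol1 (1.76), Tjp3 (1.71), Elf3 (1.59), Crb3 (1.54) and St14 (1.51). Of the other 19, Marveld3 (1.48), Cldn6 (1.41) and Marveld2 (1.38) came close to that limit, while Cdh1 (1.07), Epcam (1.11) and Tjp1 (0.988) were near 1. Among UNC iPSC, library 3 was the highest in 18 of the 32 genes, against 39.6% of all genes, and at least 1.5-fold above the other two in 3, against 5.71%.

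**Figure D5:**
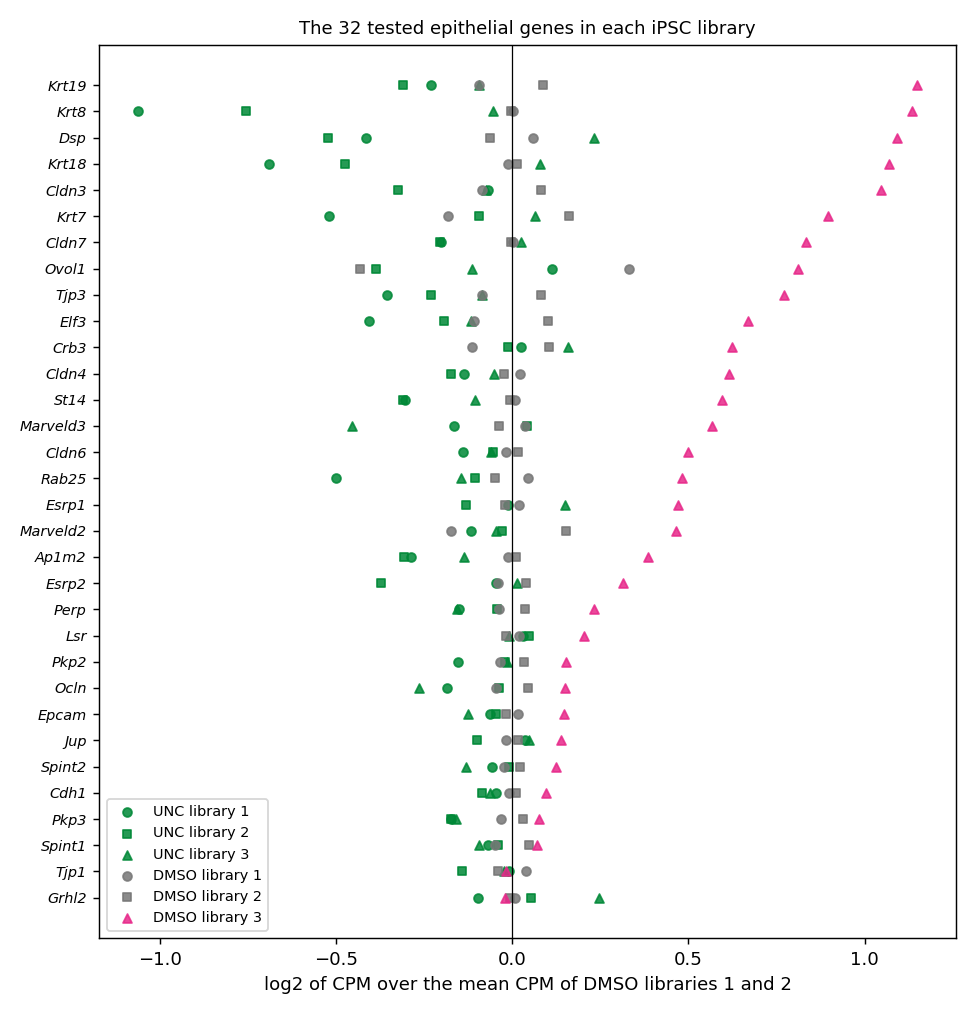
Log2 of the CPM of each of the 32 tested epithelial genes over the mean of DMSO libraries 1 and 2, with UNC iPSC in green, DMSO libraries 1 and 2 in grey and DMSO library 3 in pink; genes are ordered by DMSO library 3. DMSO library 3 lies right of 0 for 30 genes and is the highest of the 6 libraries for the same 30, a position it holds in 30.4% of all genes.

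Without DMSO library 3, 27 of the 32 log2 fold changes stayed below 0, and the median was -0.12, against -0.01 over all genes. There edgeR called 0 of the 32, against 1.12% of all genes. An unadjusted p below 0.05 was found for 7 of the 32 and was not counted over all genes. Krt8 was then at -0.57 ± 0.21 (adjusted p = 0.425), St14 at -0.23 ± 0.07 (0.221), Elf3 at -0.23 ± 0.09 (0.429), Ap1m2 at -0.24 ± 0.07 (0.196) and Dsp at -0.20 ± 0.18 (0.876). Markers of other lineages in the 3 DMSO libraries, in the order 1, 2 and 3, were 0.462, 0.236 and 1.17 CPM for the endoderm factor Foxa2 and 0.630, 0.354 and 0.792 CPM for the trophectoderm factor Cdx2, both of few reads. From the same lists, Col4a1 had 238, 253 and 206 CPM and Eomes 18.5, 17.3 and 21.3 CPM in that order. The 15 endoderm markers summed to 397 to 422 CPM in DMSO iPSC and 470 to 520 CPM in UNC iPSC. The 10 trophoblast markers, Krt7 among them, summed to 102 to 122 CPM in DMSO iPSC and 97.3 to 98.2 CPM in UNC iPSC. The placental lactogen gene Prl3d1 was at 0 in all 6 libraries. Nanog was at 470, 463 and 487 CPM in these DMSO libraries, and the mesenchymal gene Cdh11 at 17.3, 19.1 and 10.7 CPM. The part of other cell types in the values of DMSO library 3 was not tested. The pseudogene Krt8-ps had 3.37, 3.49 and 6.21 CPM in UNC iPSC, against 6.68, 6.26 and 14.0 CPM in DMSO iPSC, so reads of Krt8 may be divided between both and its level is uncertain to that extent. The counts of Esrp2, Tjp3, Ovol1, Cldn3 and Grhl2, which overlap other annotated genes in RefSeq, are uncertain likewise, since the use of strand in counting was not given.

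Mesenchymal genes were higher in the same UNC iPSC. Of the 16 mesenchymal adhesion genes 11 were called higher and 0 lower (median 0.50; 68.8%, against 1.31% of all genes), and they summed to 8990 to 10335 CPM in UNC iPSC and 6433 to 7091 CPM in DMSO iPSC, all 16 being above 0. Col1a1 had 1177, 1161 and 1172 CPM in UNC iPSC, against 692, 812 and 670 CPM in DMSO iPSC (0.70 ± 0.07, adjusted p = 0.00216), and Col3a1 (0.60 ± 0.06), Acta2 (0.75 ± 0.08) and Col1a2 (0.75 ± 0.09) followed, with Cdh2 not called (0.27 ± 0.13). Of 17 tested factors of the epithelial and mesenchymal states 3 were higher and 0 lower (17.6%, against 1.31% of all genes): Prrx1 (0.73 ± 0.09), Foxc2 (1.22 ± 0.18) and Zeb2 (0.65 ± 0.10). Of the 17, 9 had an unadjusted p below 0.05. DESeq2 called 5, as did edgeR with the replicate number as a block. Snai1 (0.16 ± 0.18), Zeb1 (0.33 ± 0.10), Twist1 (0.03 ± 0.20) and Ovol2 (-0.09 ± 0.16) were not called. Snai2 (1.07 ± 0.24) narrowly missed the threshold (edgeR, adjusted p = 0.0583) and was called with the block (0.0138). Of 12 pluripotency genes edgeR and DESeq2 called 0, with 4 at an unadjusted p below 0.05 (median 0.00). Of 37 other junction and keratin genes edgeR called 0 and DESeq2 2, with 13 at an unadjusted p below 0.05 (median -0.13). The part of feeder or unconverted cells in the epithelial values was not tested.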

How the data were processed

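Expression was measured by total RNA sequencing in 12 reprogramming and 6 iPSC libraries; 10 samples of H3K9me2 were not analysed here. The submitters' processing notes list HTSeq 0.5.4p3, DESeq, TopHat2 2.1.0 and SAMtools 1.8 for the mm10 build; their settings, strand use and annotation are not given in the sources used here. The deposited reprogramming table holds a signal, which the authors made by dividing read counts by 1 factor per library; 100% of its values were whole reads within 0.01 read. The deposited iPSC table holds raw read counts per gene. Another 2 columns of that first table could not be tied to a sample and were left out. DMSO replicate numbers disagree between titles and descriptions, and the titles' numbers are used.

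Log2 of the reprogramming value plus 1 was tested with limma 3.58.1 (trended empirical Bayes, 1 fit of 12 libraries, R 4.3.3) over the 16138 genes that reached 10 normalised counts in 3 or more libraries. Log2 fold changes are on that scale, which understates changes of low genes. The quasi-likelihood test of edgeR 4.0.16, with TMM factors and its default expression filter (17987 genes), was applied to the iPSC counts, with standard errors taken from the F statistic. P-values were Benjamini-Hochberg adjusted over all genes of a comparison and called below 0.05. Alternatives were pseudocounts of 0.5 and 5, no filter, TMM scaling, edgeR and DESeq2 1.42.0 on recovered reads, a replicate block, and each library left out; a filter on the mean of all libraries and the block with edgeR were added after seeing the data. Same-numbered libraries correlated above 0.1 in their deviations from group means in all 3 pairs of 3 comparisons (0.106 to 0.156 for 3C over DOX, 0.155 to 0.205 for 3C with UNC present, 0.11 to 0.191 for UNC with 3C), so the block is given beside results it changes there. It is also given for Krt19 with UNC in DOX alone. The labels do not say what a number marks. The fits were tested on simulated data. Symbols were looked up by Ensembl identifier in a table of gene names, and positions in RefSeq (GRCm38.p6, of the mm10 build). The 33 genes and the companion lists were chosen with earlier results of these data known. All 33 are named or counted. Of a companion list, up to 4 called genes with the smallest p are named per comparison, and Cdh2, Snai1, Snai2, Zeb1, Zeb2, Twist1 and Ovol2 where tested. Ehf is also named for 3C in both settings.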

Additional observations from a re-analysis of the deposited data

How the results depend on the processing

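No fold change of the 33 genes turned sign where it was called. Of 32 called values, 24 kept their call under every alternative run for them; of 665 alternative values of these, 41 lost the call and 0 turned sign, and of 1775 alternative values of uncalled genes 48 gained one. For UNC added to DOX with 3C, 4 genes were called, against 2 with no filter and 9 with a replicate block fitted in edgeR. Over all genes, no filter gave 1037 higher and 480 lower of 31642, and the block in edgeR 1837 higher and 1296 lower of 16138. For UNC added to DOX alone, 0 were called, against 1 (Krt19) with DESeq2, the same 1 with the replicate block in limma and the same 1 with the block in edgeR. The interaction called 0, against 1 with DESeq2, 2 (Dsp and Pkp2) with the replicate block in limma and 2 with the block in edgeR. Of all 16138 genes, those fits called 125 higher and 35 lower, 309 higher and 104 lower, and 292 higher and 171 lower. In iPSC 0 were called, against 1 with DESeq2, 13 with no count filter and 7 with the replicate block, all lower with UNC. Leaving out 1 library at a time gave 2 to 4 calls for UNC with 3C, 0 to 1 for UNC without 3C, 0 to 1 for the interaction, 12 to 13 for 3C without UNC, 12 to 16 for 3C with UNC and 0 to 0 in iPSC. With a filter on the mean of all libraries, chosen after seeing the data, 3C called 9 of 16 tested genes without UNC and 12 of 16 with UNC. Among all 15324 genes under that filter, 3C called 3908 higher and 3916 lower without UNC, and 3769 higher and 3711 lower with UNC. The replicate block changed 4 named calls in the 3 comparisons where every same-numbered pair correlated above 0.1, all gained, and no other call of a gene named for those comparisons. In iPSC those correlations were 0.071 to 0.156 (4 of 6 libraries highest with their own number), so there a number is not taken as a pairing. For UNC in DOX alone they were 0.094 to 0.223 (6 of 6), a range similar to that of the 3 comparisons, although the pair numbered 3 fell below 0.1. Differently numbered pairs were at -0.194 to -0.0131. Deviations within a group sum to 0, so these negative values partly follow from the positive ones and are no second sign of pairing. With the block, UNC in DOX alone called Krt19 and 10 of 16 mesenchymal adhesion genes, against 0. Among all 16138 genes that fit called 315 higher and 94 lower. The cause of these changes was not tested. Genes of few reads, such as Cldn4, Epcam and Krt8, are limited by depth, and shared or overlapping annotation limits Krt8 and Esrp2.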
